A study of Mus musculus with 43 samples.

Results

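The Cyp26 retinoic acid hydroxylases are the subject of this account: Cyp26a1, Cyp26b1 and Cyp26c1, 3 of the 46983 genes measured. They were found by their gene names in the deposited expression table and followed through all 14 groups of the study, with the timing of Cyp26a1 set against that of Cyp26b1. RNA was sequenced from cultured mouse germ cells that began as THY1-positive testis cells of wild-type (WT) or Stra8-knockout (KO) mice. All cultures grew with STO mouse fibroblasts as feeders, in serum-free medium with GDNF (20 ng/ml), GFRA1 (150 ng/ml) and FGF2 (1 ng/ml), and were at passage 3 to 12. They received all-trans retinoic acid (RA) or its solvent DMSO (0.01%) for 4, 8 or 24 h, or were taken untreated at 0 h. The labels give RA as 0.01 M without saying whether that is the stock or the culture. Each genotype had 3 culture lines (WT17, WT23 and WT25, or KO12, KO20 and KO21), and each line gave 1 library in each of 7 conditions. The labels do not say whether a line came from a separate mouse, so p-values measure the spread between these lines, and they do not describe the Stra8 allele.

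RA is made from vitamin A by retinol and retinaldehyde dehydrogenases, enters the nucleus and binds RAR receptors paired with RXR on DNA elements near its target genes. The CYP26 enzymes are cytochrome P450s that hydroxylate RA and so start its breakdown, and Cyp26a1 is a textbook RA target, which makes it part of a negative feedback. In the testis RA drives spermatogonia into differentiation and induces Stra8 and Kit, whereas CYP26 activity limits the RA that germ cells meet, and CYP26B1 shields fetal male germ cells from RA.

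In the coordinates of the deposited table (submitters' build GRCm38.p4) Cyp26c1 and Cyp26a1 were neighbours on the plus strand of chromosome 19. Cyp26c1 (ENSMUSG00000062432.4) lay at chr19:37685581-37693398 with 6 exon blocks and 1747 exonic bases. Cyp26a1 (ENSMUSG00000024987.5) began 4410 bases beyond its end, at chr19:37697808-37701528, with 7 blocks and 1773 exonic bases. Cyp26b1 (ENSMUSG00000063415.12) stood apart on the minus strand at chr6:84571414-84593908, with 9 blocks and 5352 exonic bases.

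The upstream sequences are shown as background, and a link between their letters and the timing of Cyp26a1 and Cyp26b1 was not tested. They are RefSeq bases (GRCm38.p6) before the start of each gene in the deposited table, 5′ to 3′ on the gene's strand. In Cyp26a1 the capitals mark both units of a DR5 element, a direct repeat with a spacer of 5 bases of the kind RAR-RXR binds, and in Cyp26b1 they mark the letters TATAAA. The third line is the DR5 of Rarb, the RA receptor gene whose own induction by RA through such an element is well known.
Cyp26a1, chr19:37697558-37697807, plus strand: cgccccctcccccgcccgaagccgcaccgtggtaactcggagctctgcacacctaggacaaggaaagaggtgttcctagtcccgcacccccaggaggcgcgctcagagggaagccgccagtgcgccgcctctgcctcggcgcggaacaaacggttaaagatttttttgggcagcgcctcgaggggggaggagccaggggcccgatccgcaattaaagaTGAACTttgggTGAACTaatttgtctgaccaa
Cyp26b1, chr6:84593909-84594060, minus strand: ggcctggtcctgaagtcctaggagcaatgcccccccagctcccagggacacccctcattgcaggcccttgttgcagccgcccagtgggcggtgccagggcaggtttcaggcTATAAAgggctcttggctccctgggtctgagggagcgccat
Rarb element, chr14:16575513-16575529, minus strand: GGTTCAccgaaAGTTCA

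The DR5 search took AGGTCA with the variants AGTTCA and also GGGTCA and finally GGTTCA, in any pair of these, on both strands, in RefSeq windows from 250 bases before to 50 after each gene start. The Cyp26a1 element began 32 bases upstream of the start and reads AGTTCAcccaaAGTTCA on the other strand, and the Rarb element began 53 bases upstream. Of 32817 windows, 32 held such a DR5 (0.0975%), those of 31 genes, of which 6 were expressed highly enough to be tested. None of the same repeats with a spacer of 1, 2 or 5 bases was found in the Cyp26b1 or Cyp26c1 window, which says only that these letters are not there. TATAAA, on either strand, was in 13.6% of windows, those of Cyp26a1 and Cyp26b1 included. The Cyp26b1 match began 41 bases before the start in the deposited table and 139 before the RefSeq start, and the Cyp26a1 match lay downstream of the start.

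Values below are log2 levels scaled between libraries by the authors. Members of the spermatogonial marker list were all abundant (15 of 15, median log2 12.54), and feeder fibroblast markers too (12 of 12, median 10.88). Markers of other testis cells were lower but not absent. A mean of at least log2 of 10 was reached by 8 of 9 Sertoli markers (median 4.66) and 5 of 5 endothelial markers (6.34). The same held for 4 of 6 peritubular myoid (5.57), 4 of 6 macrophage (5.47) and 2 of 6 Leydig markers (0.88). Summed macrophage markers ran from 8.91 to 11.40 in untreated KO and from 8.92 to 9.39 in untreated WT, so the ranges overlapped. In bulk RNA, fewer cells of a type and less RNA per cell cannot be told apart. Stra8 reached log2 14.10 to 14.73 in WT at 24 h of RA and 9.47 to 9.79 in KO, so the genotype labels held; Stra8 was still measured in KO and rose there with RA (3.08 at 24 h). The DMSO libraries of WT23, WT25 and KO20 at 4 h were doubtful. The authors' column names mark WT25 as an outlier and KO20 as tracking with KO RA 24 h, and WT23 had Stra8 at 11.59 against 7.93 in WT17. The KO20 library differed from KO20 RA 24 h by an SD of 0.0343 over 5656 genes, the closest of 861 pairs of libraries (next 0.0903). Results at 4 h are given with and without these 3, which also enter the spread estimate shared by all groups.

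Cyp26a1 rose within 4 h of RA in every line and stayed up to 24 h. Its levels in lines WT17, WT23 and WT25 were 5.18, 5.59 and 5.33 untreated, then 8.98, 8.37 and 8.36 after 4 h with RA. The KO lines KO12, KO20 and KO21 had 5.04, 5.28 and 5.22 untreated, then 9.02, 8.70 and 8.79 after 4 h with RA. All 6 RA libraries thus stood far above the untreated ones, by 2.78 to 3.98 within a line. The change was 3.20 ± 0.44 (SE, n = 3 lines per group, limma adjusted p = 1.05e-05) in WT and 3.66 ± 0.44 (limma adjusted p = 8.52e-07) in KO. Over all genes tested, 11.0% were called in that WT comparison and 8.38% in the KO one. Feeder fibroblast markers moved in the same step: their summed log2 level was 15.59 to 15.70 untreated and 14.92 to 15.14 at 4 h of RA in WT, where 4 of 12 fell, and 15.22 to 15.95 and 14.84 to 15.40 in KO, where 1 fell. The part of this shift in the early step of Cyp26a1 and Cyp26b1 was not tested.

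At 8 h of RA Cyp26a1 stood at 8.37, 8.37 and 8.73 in the WT lines and 9.31, 8.95 and 8.84 in the KO lines. At 24 h it stood at 8.47, 8.32 and 8.39 in WT and 8.65, 8.60 and 9.26 in KO. The lowest of the 18 RA libraries (8.32) lay above the highest of the 21 libraries without RA that were not doubtful (5.75), so the groups did not overlap at any time. In DMSO at 8 h the gene read 5.39, 5.75 and 5.50 in WT and 5.22, 5.54 and 5.18 in KO. In DMSO at 24 h it read 5.25, 5.12 and 5.06 in WT and 5.17, 5.51 and 5.10 in KO, so culture in solvent left it near the untreated level. Against DMSO at the same time it was 7.68-fold higher at 8 h in WT and 13.2-fold in KO, and 9.54-fold and 11.9-fold at 24 h. Those log2 changes of 2.94, 3.72, 3.25 and 3.57 (each ± 0.44 SE) had limma adjusted p-values of 5.15e-05, 1.50e-06, 1.33e-06 and 2.12e-06. The shares of all genes called were 5.12% and 3.21% at 8 h, and 24.2% and 8.84% at 24 h. By size of rise Cyp26a1 ranked 3 and 2 among 16297 genes at 8 h (WT and KO) and 4 and 3 at 24 h. In the authors' deposited table its log2 fold changes were larger, 3.70 and 4.59 at 8 h and 4.18 and 4.55 at 24 h (WT and KO). In the authors' deposited table it also ranked 1 by log2 fold change among genes with an adjusted p under 0.05, in WT and KO at 4, 8 and 24 h. Which libraries entered the authors' 4 h comparisons is not given by the column names.

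The DMSO libraries at 4 h carry the doubt. Cyp26a1 read 5.59 in WT17, 6.59 in WT23 and 5.42 in WT25, and 5.37 in KO12, 8.73 in KO20 and 5.47 in KO21. The KO20 library thus held Cyp26a1 at the level of RA-treated cultures, and WT23 stood above every library without RA other than that one. RA against DMSO at 4 h came to 2.70 ± 0.44 (limma adjusted p = 0.000301) in WT and 2.31 ± 0.44 (limma adjusted p = 0.00491) in KO, where 3% and 0.46% of genes were called. Without the doubtful libraries it was 2.99 ± 0.24 (limma adjusted p = 2.74e-10) in WT and 3.42 ± 0.19 (limma adjusted p = 2.13e-14) in KO, with 1.41% and 2.76% of genes called. The first then rests on WT17 as the only control, assumed to vary like the other groups.

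**Figure D1:**
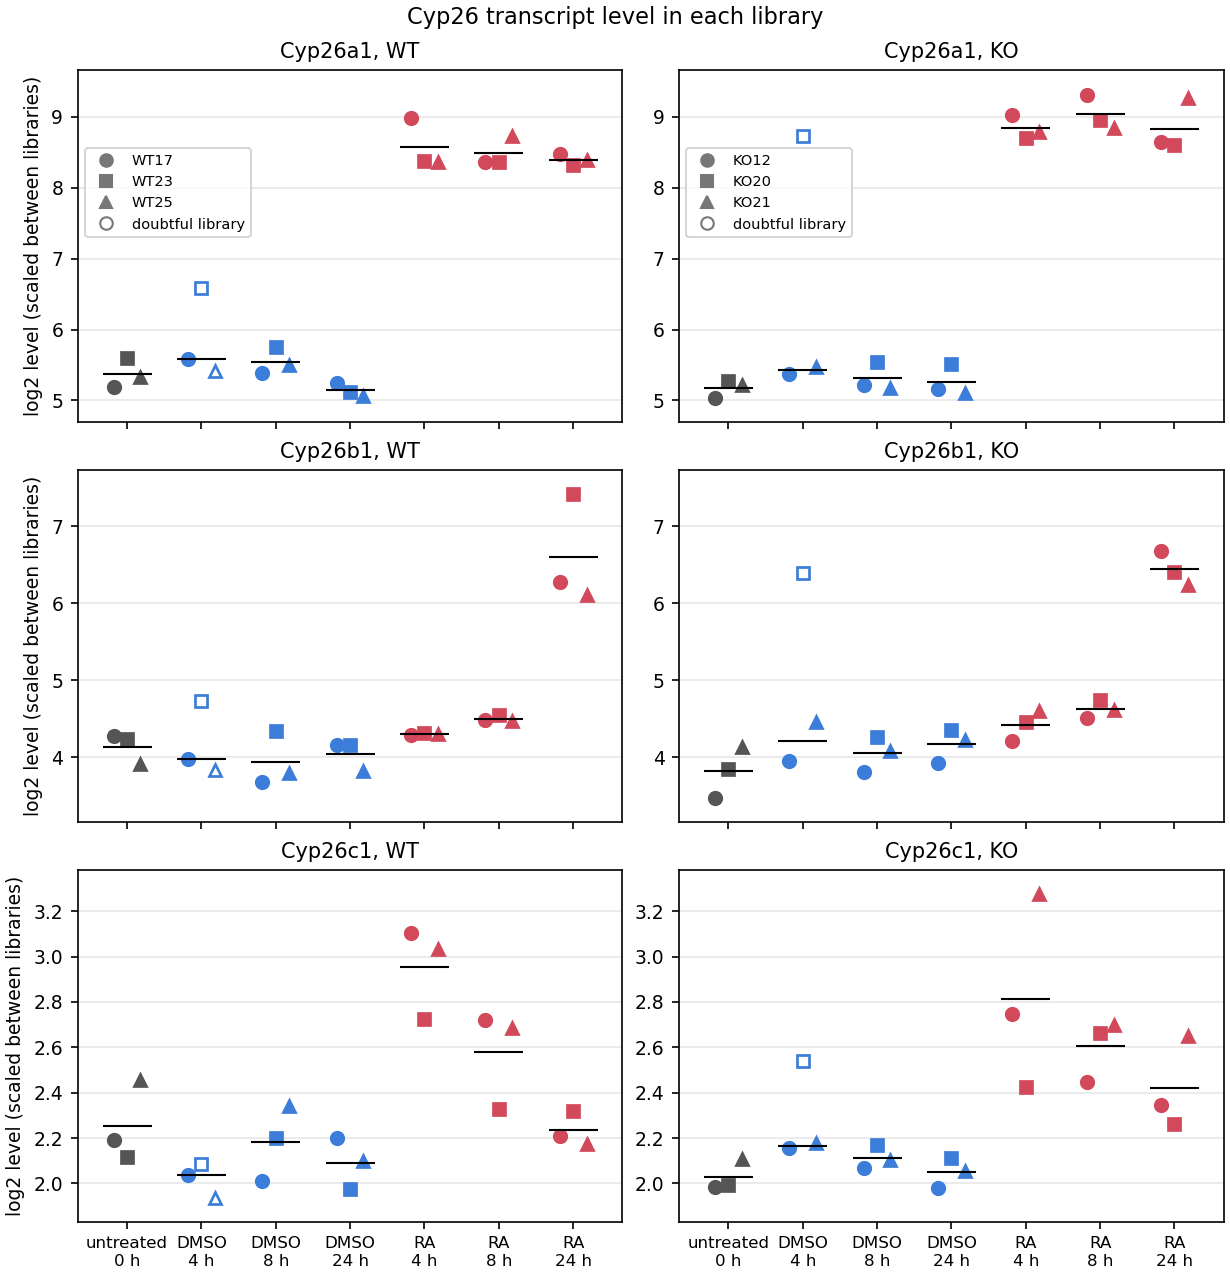
Log2 level of each Cyp26 gene (rows; scaled between libraries) in every WT (left) and KO (right) library by condition; symbols are culture lines, open symbols the 3 doubtful libraries, and bars the mean of the others. Cyp26a1 is above 8.3 in all RA libraries, Cyp26b1 is above 6 in RA libraries at 24 h and in the doubtful KO20 library alone, and Cyp26c1, on a much narrower axis, has its highest group means at 4 h of RA, although KO20 is higher at 8 h.

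Once up, Cyp26a1 showed no called change between RA times. From 4 to 8 h it moved by -0.08 ± 0.44 in WT and 0.20 ± 0.44 in KO, and from 8 to 24 h by -0.09 ± 0.44 and -0.20 ± 0.44 (limma adjusted p from 0.84 to 0.97). Of all genes 1.93% in WT and 0.239% in KO were called from 4 to 8 h. In the order of group means the only neighbours whose libraries did not overlap were the highest group without RA (WT DMSO 4 h, WT17 alone) and the lowest with it (WT RA 24 h).

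Cyp26b1 followed a later course and was high at 24 h of RA alone. Untreated it read 4.27, 4.23 and 3.91 in the WT lines and 3.48, 3.84 and 4.14 in the KO lines. At 4 h of RA it read 4.29, 4.31 and 4.30 in WT and 4.21, 4.46 and 4.60 in KO. Only 1 of those 6 exceeded the highest of the 21 sound libraries without RA (4.46). At 8 h of RA it read 4.48, 4.55 and 4.47 in WT and 4.51, 4.75 and 4.61 in KO, all 6 just above that level. At 24 h of RA it reached 6.28, 7.41 and 6.10 in WT and 6.67, 6.40 and 6.24 in KO, with WT23 the highest and no overlap with any earlier RA library. DMSO libraries at 8 and 24 h stayed between 3.68 and 4.36.

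Against DMSO at 24 h Cyp26b1 was higher by 2.55 ± 0.35 in WT, or 5.87-fold (limma adjusted p = 1.51e-06), and by 2.27 ± 0.35 in KO, or 4.82-fold (limma adjusted p = 3.01e-05). From 8 to 24 h of RA it rose by 2.10 ± 0.35 in WT (limma adjusted p = 4.81e-05, 25.4% of genes called) and by 1.81 ± 0.35 in KO (limma adjusted p = 0.00257, 7.31% called). At 8 h the values were small, 0.56 ± 0.35 in WT (limma adjusted p = 0.49) and 0.58 ± 0.35 in KO (limma adjusted p = 0.71), with all 6 lines above their own DMSO library by 0.22 to 0.80. They passed when the line was a block and the doubtful libraries were left out (limma adjusted p = 0.0278 in WT and 0.0376 in KO), and not when only those libraries were left out (0.11 and 0.16, with 12% and 6.56% of genes called).

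At 4 h Cyp26b1 differed from untreated by 0.16 ± 0.35 in WT (limma adjusted p = 0.84) and by 0.60 ± 0.35 in KO (limma adjusted p = 0.32). The KO value passed with the line as a block and without the doubtful libraries (limma adjusted p = 0.0135). Against DMSO at 4 h the DMSO libraries read 3.95, 6.40 and 4.46 in KO and 3.98, 4.74 and 3.84 in WT, so KO20 stood at the level of RA at 24 h (6.40). The KO change was -0.51 ± 0.35 with that library and 0.22 ± 0.25 without the doubtful ones (limma adjusted p = 0.87 and 0.98). In WT it was 0.12 ± 0.35, and 0.32 ± 0.32 without them.

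The early and late courses of Cyp26a1 and Cyp26b1 were compared within each of the 6 lines, with 4 exact sign-flip permutation tests (two-sided, smallest possible p 0.0312). From untreated to 4 h of RA, Cyp26a1 gained 3.43 ± 0.46 (SD, n = 6) and Cyp26b1 0.38 ± 0.28, a difference of 3.05 ± 0.43 that was positive in 6 of 6 lines (exact p = 0.0312, 0.0417 after Benjamini-Hochberg adjustment over the 4). From 4 to 8 h the gains were 0.06 ± 0.36 and 0.20 ± 0.11, which the test did not separate (exact p = 0.375). From 8 to 24 h Cyp26a1 moved by -0.15 ± 0.39 and Cyp26b1 by 1.95 ± 0.49, a difference of -2.10 ± 0.66, negative in 6 of 6 lines (exact p = 0.0312, adjusted 0.0417).

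Put as a share of the log2 rise from untreated to 24 h of RA, Cyp26a1 had reached 103% ± 9.39 (SD, n = 6 lines) at 4 h and Cyp26b1 15% ± 10.5. The gap was 88.0 ± 16.8 percentage points, with 6 of 6 lines on the same side (exact p = 0.0312, adjusted 0.0417). At 8 h the shares were 105% and 22.7%. For Cyp26b1 the 3 KO lines had covered 22.0% to 24.1% of their rise at 4 h and the WT lines 1.20%, 2.47% and 17.6%, a difference that was not tested. Within either genotype 3 lines cannot give an exact p below 0.25. The gap was 98.3 points in WT and 77.7 in KO. The first step and the share at 4 h rest on the same libraries.

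**Figure D2:**
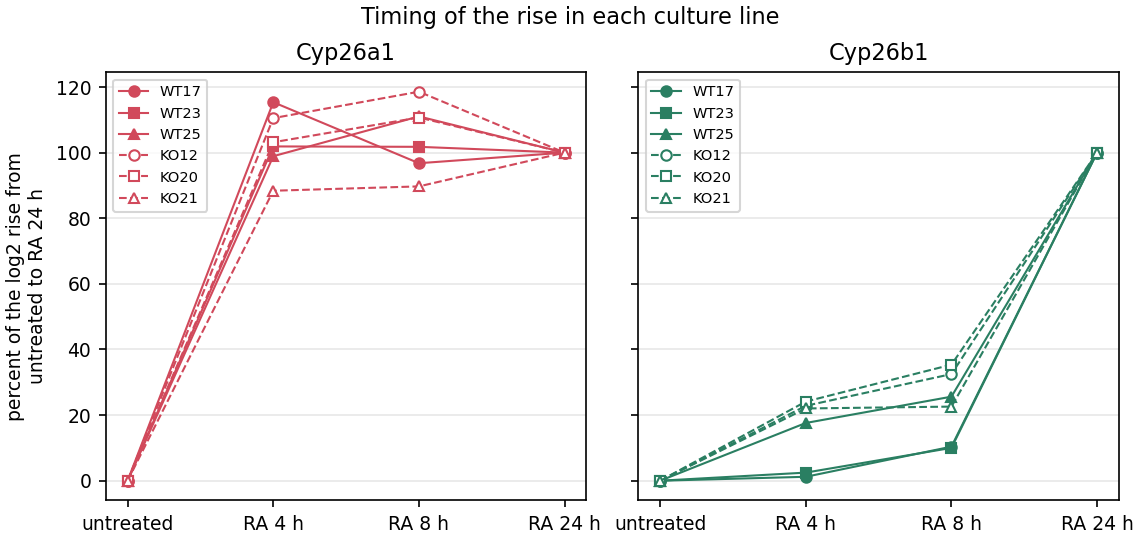
Percent of each line's own log2 rise from untreated to 24 h of RA (vertical axis) that was reached at each time, for Cyp26a1 (left) and Cyp26b1 (right); solid lines are WT and dashed lines KO, and the ends are 0 and 100 by construction. Every Cyp26a1 line is at 88.4% or more by 4 h, and no Cyp26b1 line is above 35.4% by 8 h.

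Cyp26c1 was barely detected, with an authors' mean signal of 5.80 against 325 for Cyp26a1 and 41.3 for Cyp26b1. It did not pass the level filter, so its changes come from the table without the filter, where low genes are understated. Its 21 sound libraries without RA had a lowest, median and highest level of 1.98, 2.11 and 2.46. At 4 h of RA it read 3.10, 2.72 and 3.04 in the WT lines and 2.74, 2.42 and 3.27 in the KO lines, so 5 of 6 were above all of those. At 8 h of RA 4 of 6 were above (2.33 to 2.72 in all) and at 24 h 1 of 6 (2.17 to 2.65), and every line was lower at 24 h than at 4 h of RA. From 4 to 8 h of RA it was lower in 5 of 6 lines and higher in KO20, by -0.38 ± 0.15 in WT and -0.21 ± 0.15 in KO (limma adjusted p = 0.44 and 1, with 0.37% and 0.0681% of genes called).

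Against untreated cultures Cyp26c1 was higher at 4 h of RA by 0.70 ± 0.15 in WT (limma adjusted p = 0.00676, 2.62% of genes called) and by 0.79 ± 0.15 in KO (limma adjusted p = 0.00263, 2.03% called). Against DMSO at 4 h it was higher by 0.93 ± 0.15 in WT (limma adjusted p = 0.00103, 0.613% called), and by 0.52 ± 0.15 in KO (limma adjusted p = 0.32, and 0.65 ± 0.17 with 0.074 without the doubtful libraries), where 0.136% and 0.694% of genes were called. The KO value passed without line KO20 (0.84, limma adjusted p = 0.0168) and with the line as a block and no doubtful libraries (0.68, limma adjusted p = 0.0221). Line WT17, WT25, KO12 or KO21, left out, ends 1 or more of these calls, with limma adjusted p up to 0.22 for WT against untreated, 0.084 for KO against untreated and 0.11 for WT against DMSO. Against DMSO no value was called at 8 h (1.21% of genes called in WT, 0.879% in KO) or at 24 h (6.87% and 2.66%), other than KO at 8 h with the line as a block and no doubtful libraries (0.49, limma adjusted p = 0.0461). In the authors' deposited table the fold changes of Cyp26c1 at 4 h were 1.21 in WT (adjusted p 0.00013) and 0.92 in KO (adjusted p 0.00982) on the log2 scale, with 2.88% and 2.90% of its genes under 0.05. Column names do not say which libraries entered those 4 h comparisons, so they may differ from the ones used here. The authors' interaction column at 4 h is named for fewer samples than those at 8 and 24 h. In the authors' deposited table KO at 8 h, at 0.78, was also under 0.05 (adjusted p 0.0477).

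**Figure D3:**
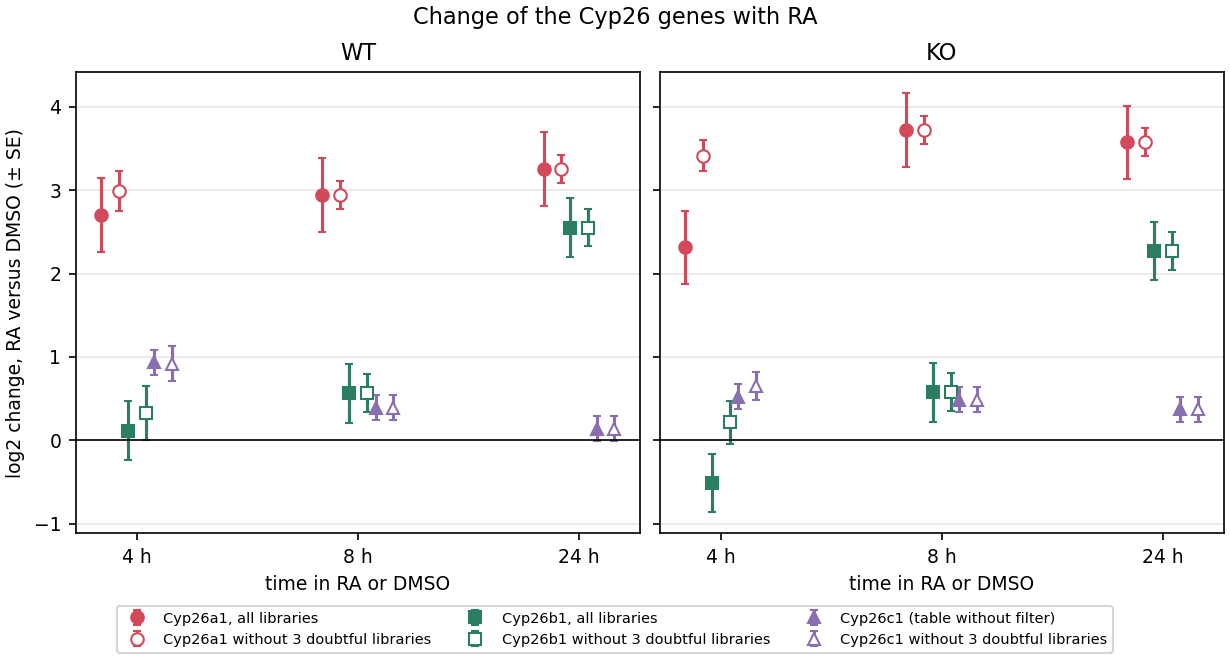
Log2 change with RA against DMSO at the same time (vertical axis, ± SE of the model) in WT (left) and KO (right), with all libraries (filled) and without the 3 doubtful ones (open); Cyp26c1 is from the table without the filter. Cyp26a1 lies between 2.31 and 3.72 at every time, while Cyp26b1 passes 2 at 24 h alone; in KO at 4 h the Cyp26b1 value turns from -0.51 to 0.22 without the doubtful libraries.

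Per length, Cyp26a1 also stood highest among the 3. Its linear signal per kilobase of exon had a median of 21.9 in the 21 sound libraries without RA and 209 in the 6 at 24 h of RA. For Cyp26b1 those medians were 3.16 and 15.1, and for Cyp26c1 2.47 and 2.80. The lowest Cyp26a1 value without RA (18.6) lay below the Cyp26b1 values of WT23 (31.8) and KO12 (19.1) at 24 h of RA and above those of the other 4 lines. So, in these scaled values, the ranges of Cyp26b1 at 24 h of RA and of Cyp26a1 without RA overlapped.

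Cyp26a1 and Cyp26b1 rose in KO as well as in WT. Cultures of both genotypes grew with the same STO feeders, whose markers were abundant. Which cells gave the Cyp26 RNA, or the Stra8 still measured in KO, was not tested. The RA effect on Cyp26a1 in KO minus that in WT was 0.78 ± 0.62 at 8 h and 0.32 ± 0.62 at 24 h (limma adjusted p = 1 and 0.82), and the 4 h value turned from -0.39 ± 0.62 to 0.43 ± 0.30 without the doubtful libraries (0.79 and 1). For Cyp26b1 it was 0.01 ± 0.49 at 8 h and -0.28 ± 0.49 at 24 h (limma adjusted p = 1 and 0.79). Neither gene was called there at any time, where 0%, 0.00614% and 8.45% of genes were at 4, 8 and 24 h. These intervals are wide and rest on 1 spread shared by all 14 groups, the doubtful libraries included. Leaving those libraries out did not turn the 8 h or 24 h value of either gene into a call. A missed threshold does not show that genotypes act alike. In the authors' deposited table, where the interaction is coded as WT minus KO, Cyp26a1 had -1.24 at 8 h with an adjusted p of 0.279.

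Set side by side, the KO lines had more Cyp26a1 than the WT lines at 8 and 24 h of RA. At 8 h the KO lines (8.84 to 9.31) lay above the WT lines (8.37 to 8.73) and at 24 h again (8.60 to 9.26 against 8.32 to 8.47), whereas at 4 h WT17 overlapped the KO lines (0.27 ± 0.44, 0.092% of genes called). The differences of 0.55 ± 0.44 at 8 h and 0.44 ± 0.44 at 24 h were not called over all libraries (limma adjusted p = 0.59 and 0.5, with 3.37% and 25.6% of genes called). They were called without the doubtful libraries, with SEs of 0.17 (limma adjusted p = 0.0308 and 0.0394, with 12.1% and 39.2% of genes called), but no longer when the line was also a random block (0.0656 and 0.0804). Untreated, KO differed from WT by -0.19 ± 0.44 for Cyp26a1 and -0.32 ± 0.35 for Cyp26b1 (limma adjusted p = 1 for both), where 0% of genes were called.

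The summed level of the 15 spermatogonial markers moved with genotype at 24 h of RA, at log2 16.29 to 16.39 in WT and 16.69 to 16.71 in KO, against 16.66 to 16.74 in all DMSO libraries at 24 h. Against DMSO 9 of the 15 fell and 1 rose in WT, where 24.2% of all genes were called, and 2 fell and 4 rose in KO, where 8.84% were. With RA for 24 h, feeder markers summed to 15.21 to 15.76 in WT, which overlapped DMSO at 24 h (15.34 to 15.97). In KO they summed to 15.33 to 15.48, below every DMSO library at 24 h (15.71 to 16.10). Of the 12 feeder markers 2 fell in WT and 1 in KO. Of the macrophage markers 2 of 4 tested fell in WT and 0 changed in KO, and of 5 endothelial markers 2 fell in WT and 2 rose in KO. The 6 Leydig markers ranged from -3.55 (Lhcgr) to 6.61 (Star) in mean log2 level, and none of the 3 tested was called. The part of these shifts in the Cyp26a1 and Cyp26b1 values was not tested.

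Solvent alone moved neither gene past the threshold. DMSO against untreated gave Cyp26a1 0.18 and 0.14 at 8 h and -0.23 and 0.08 at 24 h (WT and KO, each ± 0.44), and Cyp26b1 -0.20 and 0.23 at 8 h and -0.09 and 0.35 at 24 h (each ± 0.35). At 8 h 2.25% and 1.08% of genes were called. None of the genes tested was called at 24 h in either genotype by limma, with 957 in WT and 811 in KO at an unadjusted p under 0.05. With the line as a block limma called 25 in WT and 0 in KO at 24 h, and 634 and 211 when the doubtful libraries were left out too, with neither Cyp26a1 nor Cyp26b1 among them.

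The Cyp26 genes were then set beside 64 other genes of retinoid metabolism and signalling, of which 55 were tested. In WT 5, 8 and 14 of the 55 rose and 0, 1 and 5 fell at 4, 8 and 24 h of RA against DMSO, beside 3%, 5.12% and 24.2% of all genes called in either direction. In KO 1, 16 and 18 rose and 0, 0 and 1 fell, beside 0.46%, 3.21% and 8.84%. A list of 15 RA target genes and RAR coregulators gave 4, 5 and 8 of the genes that rose in WT and 1, 9 and 9 in KO. RA targets are listed because they respond to RA, and the lists were chosen with earlier results of these data known. The counts are thus a description and do not test the set. The median change of all 55 at 24 h was 0.14 in WT and 0.15 in KO, beside 0.00 and -0.01 over all genes tested. Without the doubtful libraries 6 and 13 of the 55 rose at 4 h (WT and KO), beside 1.41% and 2.76% of all genes called.

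Among enzymes that act before the Cyp26 step, most values were small. Dhrs3, which turns retinaldehyde back into retinol, rose at 8 h by 0.72 ± 0.16 in WT and 0.91 ± 0.16 in KO (limma adjusted p = 0.00309 and 0.00028). At 24 h it was at 0.07 ± 0.16 in WT and 0.90 ± 0.16 in KO, a difference between genotypes of 0.83 ± 0.22 (limma adjusted p = 0.0137). Aldh1a3, a retinaldehyde dehydrogenase that makes RA, fell by 1.11 ± 0.29 at 24 h in both genotypes (limma adjusted p = 0.00427 and 0.0103). Bco1, which cleaves carotene to retinaldehyde, rose in KO at 24 h by 2.16 ± 0.31 and read 0.03 ± 0.31 in WT.

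Por, which passes electrons to P450 enzymes such as the CYP26s, was abundant (mean log2 11.47) and moved little, with 0.23 ± 0.06 in KO at 24 h (limma adjusted p = 0.0119) as its one call against DMSO. Of the RA receptors, Rarb rose by 2.51 ± 0.42 at 8 h and 2.91 ± 0.42 at 24 h in WT, and by 2.81 and 3.23 in KO (limma adjusted p from 2.85e-06 to 0.000188). From untreated to 4 h of RA it rose by 1.59 in WT and 2.11 in KO, and its change from 8 to 24 h of RA was not called (0.24 and 0.63). Stra6, the membrane receptor for retinol uptake, rose at 24 h by 2.18 ± 0.34 in WT and 2.24 ± 0.34 in KO (limma adjusted p = 1.4e-05 and 2.6e-05). Its step from 8 to 24 h of RA was 1.26 in WT (limma adjusted p = 0.00645) and 0.80 in KO (0.15, and 0.014 without the doubtful libraries).

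**Figure D4:**
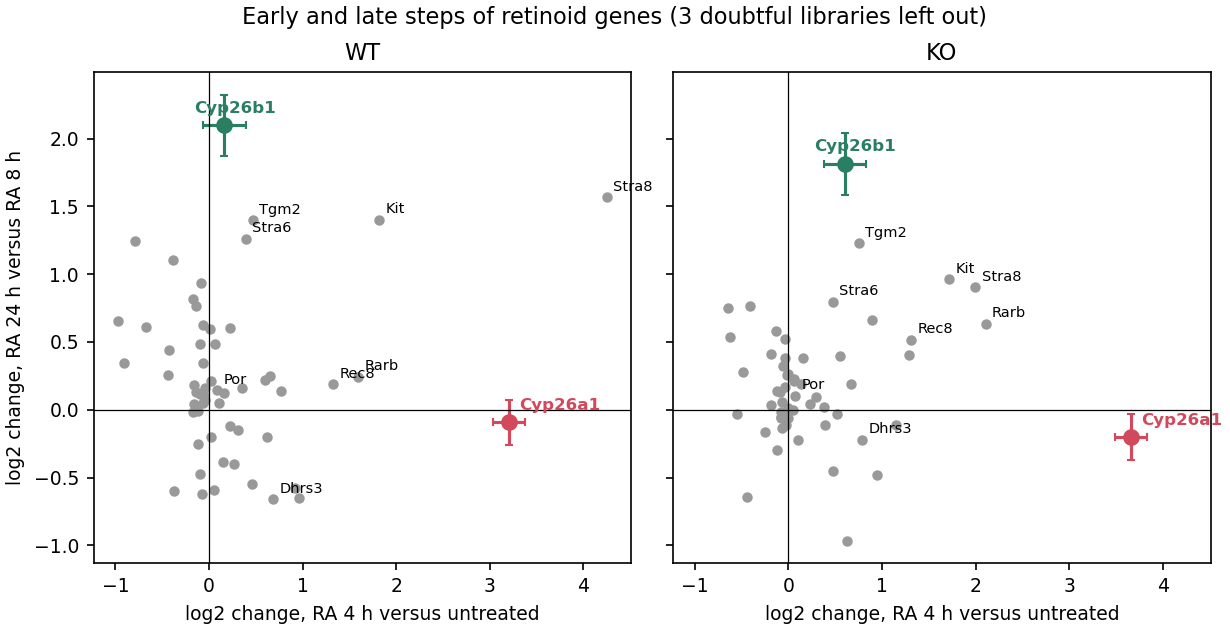
Early step (horizontal axis, log2 change from untreated to 4 h of RA) against late step (vertical axis, log2 change from 8 to 24 h of RA) for the 55 tested genes of the retinoid lists (grey) and for Cyp26a1 and Cyp26b1 with ± SE, in WT (left) and KO (right), without the 3 doubtful libraries. Cyp26a1 lies far right (Stra8 farther in WT) with late steps of -0.09 and -0.20, and Cyp26b1 lies highest with an early step of 0.16 in WT and 0.60 in KO.

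The genes whose course was most like each member were ranked by Pearson's r over the 39 sound libraries, which share their RA groups, so r is a description. For Cyp26a1 they were Ccdc88b (0.990), Npr1 (0.987), Aifm2 (0.982), Fndc5 (0.975) and Ankrd23 (0.973). All 5 were higher at 4, 8 and 24 h of RA in both genotypes, and Ccdc88b rose by 2.95 in WT and 3.43 in KO at 4 h. For Cyp26b1 they were Foxn4 (0.926), Tgm2 (0.920), Letmd1 (0.918), Stra6 (0.911) and Rgs10 (0.894), each with a called step from 8 to 24 h of RA in both genotypes (0.80 to 2.01). Both sets of values are without the doubtful libraries, where 39.9% of all genes in WT and 20.5% in KO were called from 8 to 24 h of RA. Against DMSO, 1.41%, 12% and 37.2% were called at 4, 8 and 24 h in WT, and 2.76%, 6.56% and 18.6% in KO. The genes were picked by their likeness over these same libraries, so their changes largely follow from that choice. Cyp26a1 and Cyp26b1 themselves had an r of 0.594.

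Of the 31 genes with a DR5 in the RefSeq window, the 6 tested were Cyp26a1, Rarb, Blvrb, Prokr2, Cfap45 and Tnfsf13b. Of these, 4 (Cyp26a1, Rarb, Blvrb and Prokr2) were higher at 24 h of RA in WT and in KO without the doubtful libraries, beside 17.9% and 10.5% of all genes. The other two did not rise: Cfap45 fell by 0.46 in WT at 24 h and Tnfsf13b read -0.15. Cyp26a1 and Rarb were already known here to rise with RA, so this count does not test what the element does. None of the 5 genes most like Cyp26a1 held a DR5 in its window, nor did the 4 of 5 most like Cyp26b1 that had a window, and of the 48 retinoid list genes with a window Rarb was the 1 that did.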

How the data were processed

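Stranded mRNA libraries were made from RNA isolated on the same day (integrity number 9.2 or more), per the labels' protocols. STAR 2.5.1b, DESeq and GRCm38.p4 are named in the submitters' processing notes, which leave the counting step and whether it used strand unstated. The deposited table holds 46983 genes in 42 libraries as log2 values that the authors scaled between libraries, from -4.5 to 18, per the file headers and the values; low genes are drawn towards their average, so their changes are understated. Changes of Cyp26a1 and Cyp26b1 against DMSO at 8 and 24 h were also smaller in these values than the authors' fold changes. Folds and signal per kilobase given here are thus those of the scaled values. The scaling removes read totals, so depth is unknown and counting errors cannot be stated. The authors' mean signal per gene and their log2 fold changes and adjusted p-values come from the same deposited tables and are named where used. The labels list 43 samples because WT17 at 24 h of RA has 2, while a single column stands for both, which was used as 1 library of its group.

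The planned form for log values was used: limma 3.58.1 (R 4.3.3) with 1 mean per group over 14 groups, trend and robust moderation, and Benjamini-Hochberg adjustment over the 16297 genes with at least log2 of 10 in 3 libraries (threshold 0.05). The script was tested on simulated data. Python 3.11.15, numpy 2.4.6, pandas 2.3.3 and matplotlib 3.10.9 did the rest. Signal per kilobase is 2 to the power of the log2 value over exonic length. Libraries of one line deviated together in 18 of 18 comparisons of a line between groups (lowest r 0.165 over 5656 genes). In that lowest one, WT25 from untreated to 4 h of RA, r with another line was also 0.165. Over all pairs of conditions other than DMSO at 4 h, r within a line had medians of 0.300 (KO21) to 0.530 (KO20). The lowest single r there was -0.0711 (WT23). Line names recur in the labels of every condition, so lines pair the samples. Values with the line as a block (a random one, by limma's duplicateCorrelation, for KO against WT) are given where they change a call. Named genes were the members, Stra8, Rarb, Dhrs3, Por, the largest called changes of the retinoid lists and the 5 genes most like each member. Members and lists were chosen with earlier results of these data known. Motif letters were matched exactly. The interaction result of another gene in the retinoid lists is not reported here.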

Additional observations from a re-analysis of the deposited data

Results flagged for a closer look

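Neither Cyp26a1 nor Cyp26b1 was called for a difference in RA effect between genotypes. In the retinoid lists set beside them, 8 of the 55 tested were called at 24 h, beside 8.45% of all genes, and 7 are reported here (limma adjusted p from 0.00188 to 0.0199). The RA effect in KO minus that in WT was positive for Bco1 (2.12), Hoxb1 (1.19), Stra6l (1.07) and Dhrs3 (0.83). It was negative for Stra8, the gene labelled as knocked out (-3.75), Ncoa1 (-0.81) and Rdh12 (-0.79).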

How the results depend on the processing

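Alternatives left out the 3 doubtful libraries, each of them, or each line, used the line as a block, other filters, quantile or median scaling, unmoderated variances or only the compared groups. Of 872 recomputed values of Cyp26a1, Cyp26b1 and their timing, 817 kept their direction and side of the threshold. Many of these could not change direction. Leaving out a KO line or library leaves the changes within WT as they were, and the reverse. Other filters, unmoderated variances and a block over complete lines also leave a log2 change as it was. The replicate block alone kept all 38 values, and its changes without the doubtful libraries stand beside Cyp26b1 above (0.60 at 4 h in KO, 0.56 and 0.58 at 8 h) and beside Cyp26c1 in KO. For KO against WT, where no line is in both, the line was a random block. Cyp26a1 against DMSO at 4 h ranged from 1.65 to 3.48 in KO and from 2.36 to 3.17 in WT with 1 line or library left out; it lost its call without KO12, KO21 or WT25 and, at 2.31 in KO, with only the compared groups. Called without the doubtful libraries were Cyp26a1 in KO against WT at 8 h (0.55) and 24 h (0.44). The interaction of Cyp26a1 at 4 h turned to 0.43 without the doubtful libraries and 0.40 with the block too, and Cyp26b1 against DMSO at 4 h in KO to 0.22 and 0.17. The Cyp26b1 interaction at 8 h, near 0, turned to -0.0431 with quantile and -0.0356 with median scaling. With 1 line or library left out the interactions ranged from -1.06 to 0.78 (Cyp26a1, 4 h), -1.02 to 0.10, -0.16 to 0.13 and -0.52 to 0.0676 (Cyp26b1, 4, 8 and 24 h). Cyp26b1 ranged from -0.0554 to 0.39 in WT and -0.90 to 0.22 in KO against DMSO at 4 h, and from -0.41 to 0.25 in KO against WT at 24 h of RA. Cyp26a1 ranged from -0.51 to 0.0304 (KO) and -0.19 to 0.0290 (WT) from 8 to 24 h, and from -0.31 to 0.18 from 4 to 8 h in WT. Timing differences with 1 line left out were 2.90 to 3.13 from untreated to 4 h, -2.28 to -1.94 from 8 to 24 h and 82.8 to 92.3 points; 5 lines cannot reach an exact p below 0.0625, or 3 lines one below 0.25. Within WT they were 3.04, -2.19 and 98.3, and within KO 3.06, -2.02 and 77.7. With steps as shares of the linear level at 24 h of RA, the difference from 4 to 8 h turned from -0.14 (log2) to 0.0198. Over all alternatives, counts of genes called moved most: at 24 h of RA against DMSO from 2340 to 7632 in WT (3949 as reported) and from 600 to 4850 in KO (1440), at 8 h from 256 to 3443 (834) and 197 to 1950 (523), and at 4 h from 23 to 4297 (489) and 1 to 743 (75). Without the 3 doubtful libraries alone the counts were 6047 and 3019 at 24 h and 1957 and 1067 at 8 h (WT and KO). Those libraries are in none of the groups compared at 8 and 24 h, but they enter the spread shared by all groups. The cause of the moves was not tested. Alternatives for Cyp26c1, for KO against WT and for DMSO against untreated were added after seeing the data. Depth is unknown, so its limit on Cyp26c1 cannot be given.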
